A study of Stylosanthes guianensis with 9 samples.

Results

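A group of 34 genes of stylo (Stylosanthes guianensis), a tropical pasture legume, was described in root tips at 24, 48 and 72 h after germination. The genes were chosen by their measured RPKM values, out of 54199 genes in the table. RPKM counts the reads of a gene relative to its length and to the total of reads counted for that library. A gene was taken when its lower 72 h value was at least 5 RPKM and at least 1.5 times its highest value in the 6 earlier libraries, and when its 48 h mean was not below its 24 h mean. The limit of 300 genes was not reached. Higher levels at 72 h are therefore the ground of the choice and not a finding, and the mean at 48 h was restricted too.

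The RNA came from roots of the genotype Reyan No. 2, with root tips named as the tissue in the series description, and each time had 3 labelled replicates. The labels state no treatment, and nothing in them tells if the replicates were grown apart. The p-values therefore reflect only how far these samples vary, and that variation may be technical. As far as the labels say, the groups share genotype and tissue and differ by time. Whole root tips were sampled, so more cells of a type and more RNA per cell cannot be told apart.

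After germination the young root grows from its tip, where a meristem adds cells, an elongation zone lengthens them, and a root cap sheds cells into the surroundings. In some species the shed cells stay attached to each other and are called border-like cells. The series title names them together with a polygalacturonase, an enzyme family that cuts pectin, the polymer that holds neighbouring plant cells together. The table holds IDs without names, descriptions or sequences, so no role can be given to any of the 34 genes, no cell type marker could be checked, and 2 of them are named by ID.

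The library totals behind the RPKM values were 28453545 to 37783453 reads. The listed genes held 99.8% to 99.9% of them, so the totals are not the number of all reads sequenced, which is not given. The libraries of replicates 1 and 3 at 72 h were closer than sampling noise allows, with a mean chi-square per gene of 0.0473 against 43.3 to 158.2 for the other pairs of one time, and were averaged and counted as 1 sample. This left 3 samples at 24 h, 3 at 48 h and 2 at 72 h. In the choice of the genes replicate 1 stood for both. Replicate 1 at 24 h and replicate 2 at 72 h listed 24907 and 27888 genes at 0, while the other libraries listed 8585 to 12163. Both libraries touch the choice of the 34 genes, and the values without them are given beside the results.

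The gene c40474_g1 had the largest ratio between its 72 h and 24 h means after adding 1 RPKM to each, and it had almost no reads at 24 h. It had 0, 0.159 and 0.0735 RPKM at 24 h, from 0, 4 and 2 reads in replicates 1, 2 and 3. At 48 h it had 18.8, 16.1 and 19.6 RPKM, and at 72 h it had 68.5 RPKM in the averaged replicates 1 and 3 and 36.4 RPKM in replicate 2. All samples of each time lay above all samples of the time before. The mean was 0.0775 ± 0.0796 RPKM at 24 h (SD, n = 3), 18.2 ± 1.82 at 48 h (SD, n = 3) and 52.5 ± 22.7 at 72 h (SD, n = 2). Counted in reads, its rate at 48 h was 232 times that at 24 h, with a 95% interval of 106.3 to 633.1 (exact binomial), which covers counting error only. The wide interval comes from the 6 reads found at 24 h, whereas the ratio of 72 h to 48 h, 2.98, had an interval of 2.80 to 3.18.

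The gene with the highest level at 72 h, c31922_g4, was detected at every time. It had 1.27, 6.08 and 7.81 RPKM at 24 h and 111.0, 53.7 and 107.7 RPKM at 48 h. At 72 h it had 233.6 RPKM in the averaged replicates and 187.8 RPKM in replicate 2. Its times did not overlap either, and replicate 2 was the lowest library at both 48 h and 72 h. The means were 5.05 ± 3.39 RPKM at 24 h, 90.8 ± 32.2 at 48 h and 210.7 ± 32.4 at 72 h (SD, n = 3, 3 and 2). For both genes most of the difference on the log2(RPKM + 1) scale was already there at 48 h, 74.6% for c40474_g1 and 76.2% for c31922_g4.

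**Figure D1:**
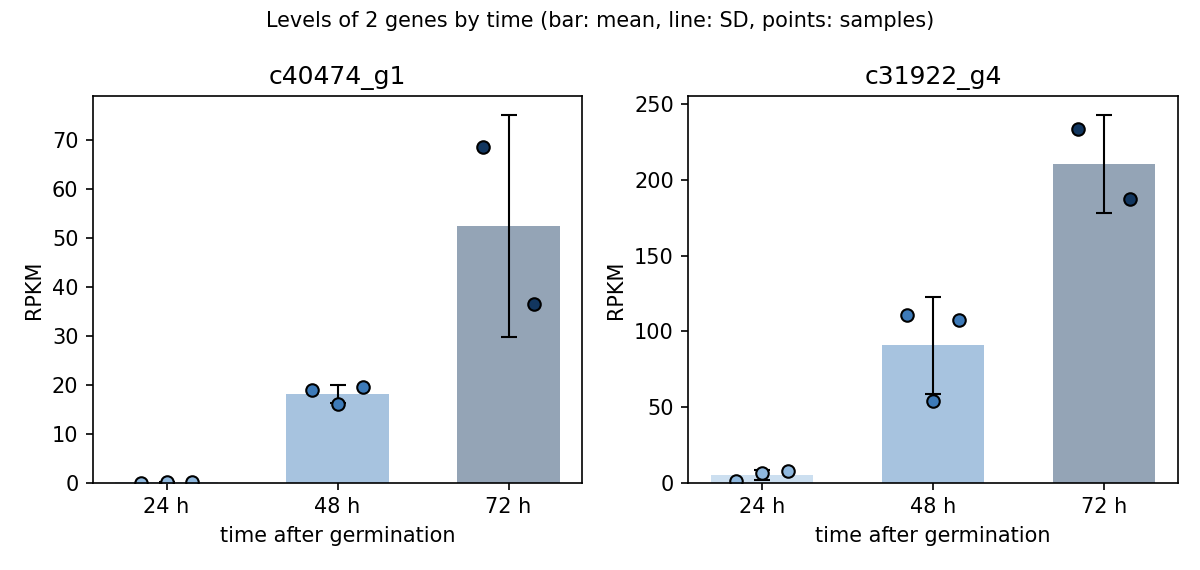
RPKM of c40474_g1 (left) and c31922_g4 (right) at 24, 48 and 72 h after germination. Bars give the mean, lines the SD and points the samples (n = 3, 3 and 2, with 72 h replicates 1 and 3 averaged); in both genes all samples of a later time lie above those of the earlier time.

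Across the 34 genes, levels were low at 24 h and moderate at 72 h. The median gene had a mean of 2.47 RPKM at 24 h, 5.36 RPKM at 48 h and 15.1 RPKM at 72 h, and the highest had 21.4, 90.8 and 210.7 RPKM. A 24 h mean under 1 RPKM was seen in 12 genes. At 72 h the mean reached at least 10 RPKM in 22 genes, at least 50 RPKM in 5 and at least 100 RPKM in 3. The 72 h mean was 2.01 to 731.5 times the 24 h mean, with a median of 7.97, and it was at least 10 times the 24 h mean in 13 genes. The ratio of 731.5 belonged to another gene, with 2 reads over all the 24 h libraries, and its rate of reads was 716.7 times higher at 72 h with a counting interval of 197.9 to 5926. The 34 genes stood on 74 to 9725 reads per gene and library in replicates 1 and 2 at 72 h and 19 to 4577 at 48 h. At 24 h they stood on 0 to 1763 reads, with a median of 57.5, so the 24 h values had the largest relative counting error.

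**Figure D2:**
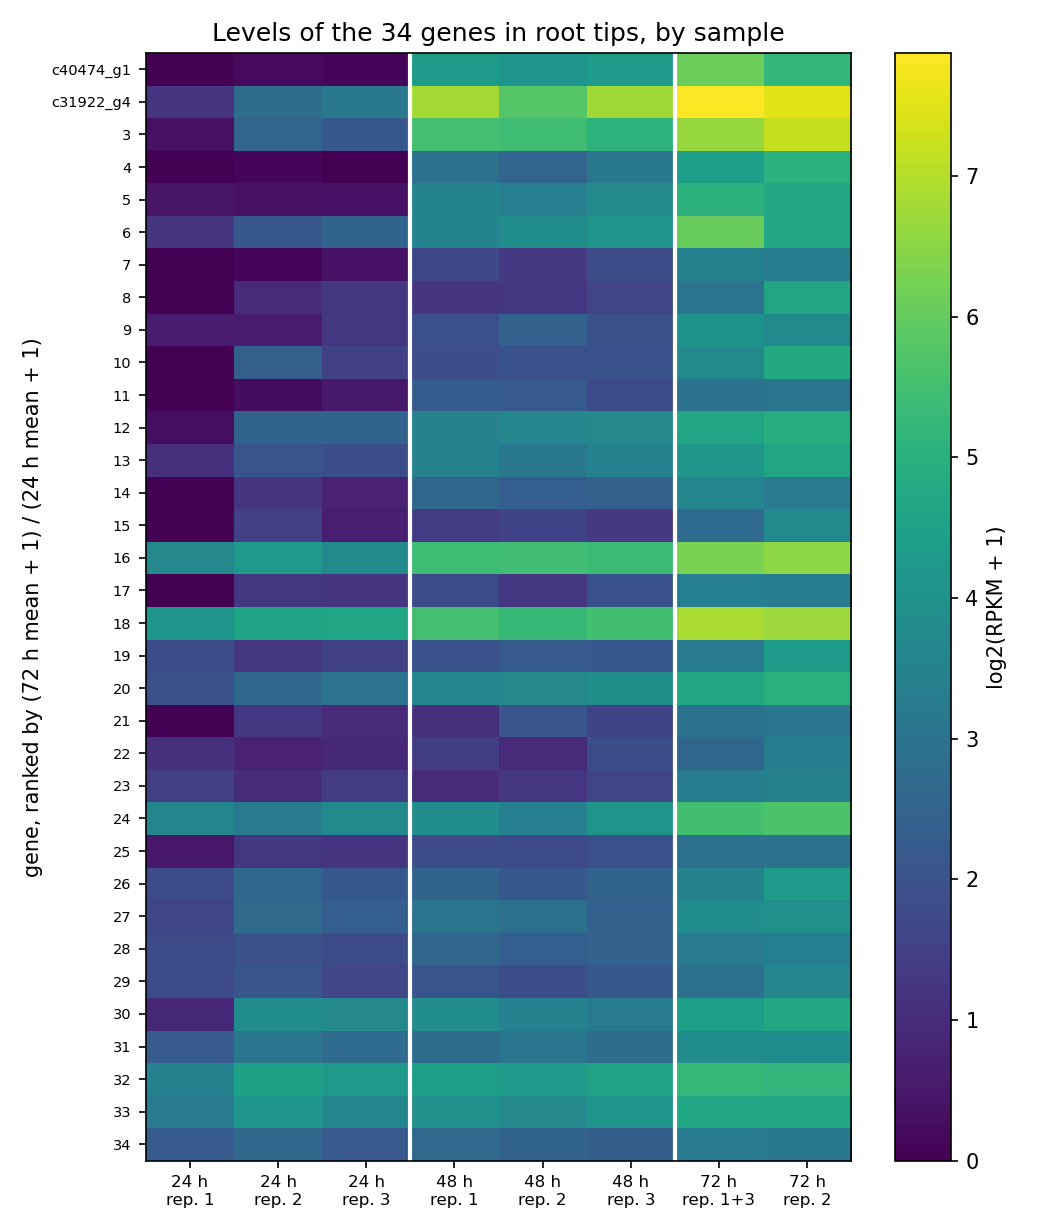
Level of each of the 34 genes (lines from top to bottom, ordered by the ratio of the 72 h to the 24 h mean after adding 1 RPKM) in the 8 samples (columns), on the log2(RPKM + 1) scale. Dark colours mark low levels: the upper lines are darkest at 24 h, and replicate 1 at 24 h is the lowest 24 h library in 24 genes.

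The genes differed in their level at 48 h. In 18 of the 34 genes all 48 h samples lay above all 24 h samples, which is 52.9%, against 12.6% of the 28428 genes tested. The rule asked for a 48 h mean not below the 24 h mean, so this share is a description. The split rested in part on replicate 2 at 24 h, without which 29 of the 34 genes showed no overlap, against 19.7% of all genes tested. In the other 16 genes the 48 h and 24 h samples overlapped. The 18 genes had a median of 2.11 RPKM at 24 h, 10.2 at 48 h and 26.2 at 72 h, and their 48 h mean was 1.71 to 234.5 times their 24 h mean. The 16 genes had medians of 3.20, 3.75 and 13.6 RPKM, and the ratio of 48 h to 24 h lay between 1.003 and 2.63. Their ratio of 72 h to 48 h had a median of 3.39 and reached 9.60, whereas in the 18 genes it had a median of 2.59 and reached 4.53. The split into 18 and 16 genes used the 48 h and 24 h values that enter these ratios, so the differences are descriptions. The ratio of 9.60 belonged to a gene with 7.25 RPKM in the averaged 72 h replicates and 23.7 RPKM in replicate 2.

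On the log2(RPKM + 1) scale, the step before 48 h was larger than the step after it in 12 genes, and the later step was larger in 22. The median difference between 48 h and 24 h was 0.83, and that between 72 h and 48 h was 1.35. Over all genes tested these medians were 0.005 and -0.08. The order of the medians of the 34 genes depended on the 1 RPKM added before taking the log. With 0.1 RPKM added they were 1.6 before 48 h and 1.4 after it, and with 0.01 RPKM 1.86 and 1.41. The rule set a minimum size for the later step, but for the earlier step only its direction. The split into 12 and 22 genes and the medians are therefore shaped by the choice. The share of the whole difference between 72 h and 24 h that was reached by 48 h ran from -0.29% to 76.2%, with a median of 40.7%. It was 25.7% or more in each of the 18 genes without overlap and at most 40.2% in the 16 others, a split that used the same 48 h and 24 h values. With one 48 h library at a time the median over the 34 genes was 43.3%, 37.3% and 44.9% for replicates 1, 2 and 3. Without replicate 1 at 24 h the median share was 32.8%.

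**Figure D3:**
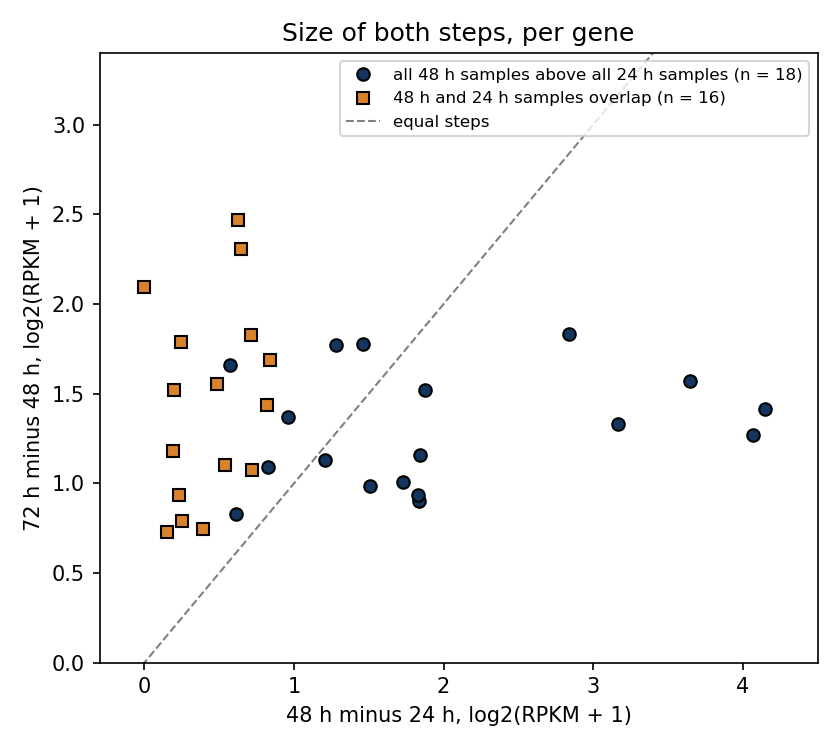
Difference between 48 h and 24 h (x axis) and between 72 h and 48 h (y axis) for each of the 34 genes, in log2(RPKM + 1). Circles are the 18 genes whose 48 h samples all lay above the 24 h samples, squares the 16 others, and the dashed line marks equal steps; 12 genes lie below it.

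The gene with the smallest share was one of the 16 with overlap. It had 1.81, 0.990 and 1.65 RPKM at 24 h and 1.001, 1.35 and 2.11 RPKM at 48 h, so that the ranges of both times overlapped. At 72 h it had 9.10 RPKM in the averaged replicates and 9.81 RPKM in replicate 2. Its 72 h samples stood clear of all earlier ones, as the rule required, and lay close to each other. A more abundant gene of this group had 11.03, 8.57 and 12.4 RPKM at 24 h, 13.6, 9.44 and 15.9 RPKM at 48 h, and 43.5 and 49.2 RPKM at 72 h. Its share by 48 h was 12.1%. These 2 genes were picked after their values were seen.

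Among the genes without overlap between 48 h and 24 h, the second highest at 72 h had 0.281, 4.94 and 3.47 RPKM at 24 h and 44.7, 42.1 and 32.9 RPKM at 48 h. It reached 99.4 and 144.1 RPKM at 72 h. The third highest had the highest 24 h level of the group, 16.4, 23.1 and 24.5 RPKM, followed by 44.5, 37.8 and 43.7 RPKM at 48 h and 115.4 and 104.8 RPKM at 72 h. The fourth had 12.02, 18.3 and 12.6 RPKM at 24 h, 42.1, 43.0 and 40.5 RPKM at 48 h, and 77.4 and 91.0 RPKM at 72 h. In these 3 genes, taken by their rank at 72 h after the values were seen, the spread within 48 h was small beside the steps. The choice of this group and the rule fixed that their times followed each other without overlap.

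Limma, fitted over 28428 genes with adjusted p-values, gave the following counts, each with the share of all genes called higher beside it. For 72 h against 24 h, 32 of the 34 genes were called higher at an adjusted p under 0.05, against 3.88% of all genes. The rule used this contrast, so nothing is read from that count. Without replicate 2 at 72 h the median difference of the 34 genes was 2.25 in log2(RPKM + 1), against 2.42 with it. The 2 genes not called had an adjusted p of 0.0608 and 0.136 in limma. One of them had 0.831 RPKM in replicate 1 at 24 h, against 13.2 and 12.04 RPKM in the other 24 h libraries. For 48 h against 24 h, limma called 14 of the 34 genes higher, against 2.08% of all genes, and all 14 were among the 18 without overlap. Without replicate 1 at 48 h limma called 9 of the 34 higher, while its count over all genes tested fell from 592 to 209. The direction of this contrast was set by the rule as well.

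For 72 h against 48 h, a contrast that the rule also used, none of the 34 genes and none of the 28428 genes tested was called, so the share of all genes called higher was 0%. Without the filter on low values, limma called 1 gene higher and 5 lower among all 54199, none of them among the 34. The adjusted p from limma lay between 0.0765 and 0.569 for the 34 genes. At an unadjusted p under 0.05, limma counted 32 of them as higher, against 4.03% of all genes, and 3161 of the genes tested in either direction. Voom weights on the recovered reads called 10 of the genes tested after adjustment, 6 higher and 4 lower, and 4 of the 34 were among the higher ones. All 3 comparisons share samples, and 1 fit gave them all.

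Together, the 34 genes held more of each library at each later time. The rule set the direction of this rise in the group means, so it is a description and not a finding. They took 116.2, 213.3 and 200.3 of every 1000000 reads (RPM) at 24 h in replicates 1, 2 and 3. At 48 h they took 544.6, 448.5 and 542.9 RPM, and at 72 h 1328 in replicate 1, 1330 in replicate 2 and 1331 in replicate 3. The means were 176.6 ± 52.7 at 24 h (SD, n = 3), 512.0 ± 55.0 at 48 h (SD, n = 3) and 1329 ± 0.394 at 72 h (SD, n = 2). The nearly equal sums at 72 h did not come from equal genes, because single genes differed between the 72 h samples. The gene with the most reads in a library held 16.4% to 29.4% of the reads of the group there, and without it the group took 82.1 to 165.2 RPM at 24 h, 370.0 to 420.9 RPM at 48 h and 1063 to 1112 RPM at 72 h.

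**Figure D4:**
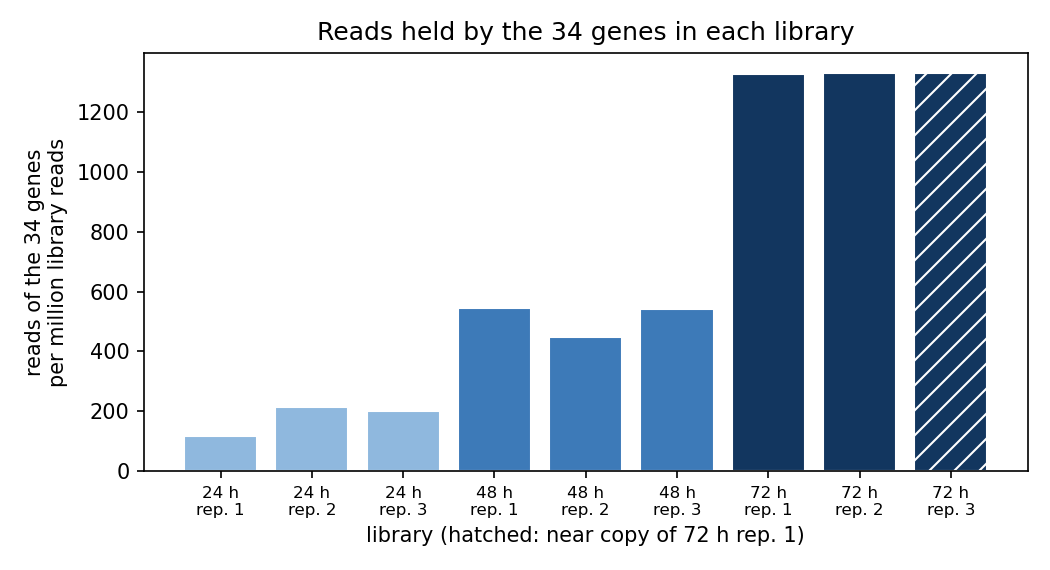
Summed reads of the 34 genes per 1000000 reads of the library (RPM) in each of the 9 libraries, coloured by time, with 72 h replicate 3 hatched as a near copy of replicate 1. The 24 h libraries lie between 116.2 and 213.3, the 48 h libraries between 448.5 and 544.6, and the 72 h libraries between 1328 and 1331. The rule set the direction of this rise.

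The 72 h samples differed from each other by more than 1.5 times in 10 of the 34 genes and by more than 2 times in 5. Of the 12783 genes with at least 5 RPKM in the lower of 72 h replicates 1 and 2, 26.2% differed by more than 1.5 times. Replicate 2 was the higher one in 21 of the 34 genes, against 39.4% of those 12783 genes. The rule used these same 72 h values, so both comparisons with the 12783 genes are descriptions. One gene had 64.7 RPKM in the averaged replicates and 24.7 RPKM in replicate 2, and another had 7.25 and 23.7 RPKM. Both samples still lay above all earlier libraries, as the rule required. The median coefficient of variation over the 34 genes was 49.1% at 24 h (n = 3), 15.1% at 48 h (n = 3) and 13.9% at 72 h (n = 2).

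Replicate 1 at 24 h, which listed many genes at 0, was the lowest 24 h library in 24 of the 34 genes, against 45.1% of all genes tested, and replicate 2 the highest in 20, against 33.6%. It listed 10 of the 34 genes at 0, which is 29.4%, against 12.2% of all genes tested. A count of 0 there allowed up to 3 reads, or 0.0540 to 0.211 RPKM for these 10 genes, and 8 of them had a mean above that limit in the other 24 h libraries. The rule set an upper limit on every 24 h value, so the comparisons with all genes tested are descriptions. The part of this library in the low 24 h levels was not tested. Without replicate 1 at 24 h, 39 genes met the rule, of which 32 were among the 34.

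The 72 h samples differed in how many genes passed. In replicate 1 alone 120 genes passed the rule, and in replicate 2 alone 1167 genes did, with 34 in common. Of the 120 genes, 7 were at 0 in replicate 2, and 42 of those that failed there had at least 5 RPKM in it. Without the condition on the 48 h mean 43 genes passed, since 9 had a 48 h mean below their 24 h mean. The 3 genes just inside the fold limit had their lower 72 h value at 1.506, 1.508 and 1.515 times the highest earlier value, and the 3 just outside had it at 1.492, 1.488 and 1.487 times. The lowest 72 h values inside were 5.21, 5.66 and 6.45 RPKM, and the highest outside were 4.69, 4.21 and 4.14 RPKM.

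Some properties were not named in the rule. Gene length still entered the choice, because RPKM divides reads by length and the rule set a lowest RPKM. The gene lengths behind the RPKM values ran from 318 to 2631 nucleotides in the 34 genes, with a median of 1041 and quartiles of 794.5 and 1313. Over all genes tested the median was 1172 and the quartiles were 611 and 1934. The middle of the group thus lay in a narrower range. The genes tested did not have to reach the lowest level set by the rule, so this comparison is a description. The part of the rule in the narrower range was not tested. The 18 genes without overlap had a median length of 1149 nucleotides, and the 16 others 900 nucleotides.

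The first number of an ID is shared by genes that assemblers place in one component of related sequence, although the sources used here do not say how the IDs were made. The 34 genes came from 34 components. Another gene of the same component was in the table for 17 of them, which is 50%, against 65.8% of all genes tested. Reads of such partners may be hard to tell apart, so their levels are uncertain where sequences are alike. The partners numbered 56, and 39 of them passed the filter. On the mean of log2(RPKM + 1), 25 of the 39 were higher at 72 h than at 24 h, against 45.4% of all genes tested. The 2 samples of 72 h lay above all earlier samples in 7 of the 39, against 9.17% of all genes tested. One partner, picked after the values were seen, had the largest rise of the 39 from 24 h to 72 h. It had 0.0961, 4.01 and 3.49 RPKM at 24 h, 48.7, 50.6 and 104.4 RPKM at 48 h, and 308.6 and 55.8 RPKM at 72 h. It fell outside the group because replicate 2 at 72 h lay below replicate 3 at 48 h. The 4 partners of c31922_g4 that passed the filter had 72 h means between 1.91 and 9.05 RPKM, against 1.64 to 20.9 RPKM at 24 h.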

How the data were processed

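RNA was measured in root tips of stylo at 3 times after germination, with 3 labelled replicates each. The authors deposited RPKM values per gene, in 9 columns, and HTSeq 0.6.0 is listed in the submitters' processing notes. No aligner or assembler is named in the sources used here. The 34 genes, the rule and the comparisons were chosen with earlier results of these data known.

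Reads, lengths and library totals were recovered as the whole numbers that give the RPKM steps, within 1e-08 reads or a relative error of 1e-12, in all 54199 genes. Times were compared with limma 3.58.1 (R 4.3.3) on log2(RPKM + 1), in 1 fit of 8 samples with an intensity trend, without a replicate block. Genes needed at least 1 RPKM in at least 3 of 9 columns, which kept 28428 genes and all 34 described here, and p-values were adjusted by Benjamini-Hochberg over all of them. Fold changes on this scale understate the change of low genes. Where 72 h replicate 2 was left out, the lone 72 h sample was assumed to vary like the others. The recovery and the fit were tested on simulated data. The IDs to name were the gene with the largest ratio of (72 h mean + 1) to (24 h mean + 1) and the one with the highest 72 h level. Alternatives changed the rule, pseudocount, filter, scaling, samples or test. Tables were made with Python 3.11.15 and SciPy 1.17.1.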

Additional observations from a re-analysis of the deposited data

How the results depend on the processing

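The number of genes that met the rule followed its limits. A fold limit of 125% of the highest earlier value gave 184 genes and one of 200% gave 16, and a lowest 72 h level of 1 RPKM gave 170 and of 10 RPKM gave 20. Leaving out 1 library gave 36 to 120 genes, the most without 72 h replicate 2, followed by 58 without 48 h replicate 3. Leaving out a library loosens the limits of the rule (for 72 h replicate 1 the near copy took its place), so most of the 34 genes had to meet it again. Without both 24 h replicate 1 and 72 h replicate 2, added after seeing the data, 131 genes met it, 32 of them among the 34. Median rescaling and quantile normalization gave 47 and 49 genes.

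For 72 h against 24 h, leaving out 1 library gave 21 to 32 of the 34 genes called by limma, the fewest without 72 h replicate 2. For 48 h against 24 h, 14 were called, 8 with a pseudocount of 0.01 and 9 to 14 with 1 library left out, the fewest without 48 h replicate 1, while 15 were called without both 24 h replicate 1 and 72 h replicate 2. For 72 h against 48 h, 0 were called, 2 after median rescaling, 2 after quantile normalization, 7 with all 9 columns as separate samples, 4 with voom weights, and 0 with any library left out. Quantile normalization turned 1102 higher and 2679 lower of the genes tested at 72 h against 24 h into 2224 and 2412, and moved the median of all genes from -0.07 to 0.10. With the replicate block limma called 32 of the 34 genes higher for 72 h against 24 h, against 1204 of all genes tested. For 48 h against 24 h it called 14, against 681, and for 72 h against 48 h 0, against 0. Correlations between sample deviations were -0.05 to 0.05 within number 1, 0.09 to 0.22 within 2 and 0.16 within 3. Across numbers they were -0.25 to 0.14, highest for replicates 3 with the averaged 72 h sample, counted as number 1. Pairing was left undecided. The 18 genes without overlap between 48 h and 24 h became 19 to 29 with 1 library left out, the most without 24 h replicate 2. The median share reached by 48 h was 47.4% and 51.3% with pseudocounts of 0.1 and 0.01, 32.8% to 43.6% with 1 library left out, and 35.5% without both libraries with many genes at 0. The causes were not tested. A library with 0 reads of a gene allows up to 3, and the part of depth in these counts was not tested.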
